A study of Drosophila melanogaster with 8 samples.

Results

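Of 7756 peaks of Deadpan (Dpn) binding in larval brains of Drosophila, 398 lay at genes for long noncoding RNAs (lncRNAs) and at no protein-coding gene. A peak was a member if at least 1 gene whose symbol starts with lncRNA: lay within 1 kb of it and no protein-coding gene did, in the RefSeq annotation of Release 6. The pan-NB list held 224 such peaks among 4282 (5.23%) and the medulla NB list held 174 among 3474 (5.01%). The choice used only positions, so scores and the overlap of the lists were not part of it.

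Dpn binding was profiled in 3rd instar larval neuroblasts (NBs) in 4 conditions of 2 replicates each, and the question was where Dpn binds in all NBs and in the NBs of the medulla, the largest neuropil of the optic lobe. For the pan-NB profile, wor-GAL4 with tub-GAL80ts drove Dam-Dpn, made with FlyORF-TaDa, or Dam-only in NBs, with 30 brains per replicate. For the medulla NB profile, NanoDam (TaDaM-traNLS-vhhGFP, tub-GAL80ts) was driven with eyR16F10-GAL4, which the labels give as ey-GAL4, in Dpn-GFP larvae or in the w1118 background, with 40 brains per replicate. All larvae were reared at 18°C and shifted to 29°C, which releases GAL80. Targeted DamID joins the bacterial methylase Dam to the protein of interest and reads out methylated GATC sites. In NanoDam, Dam is fused to a nanobody that binds GFP, so Dpn was made from a UAS transgene in the pan-NB larvae and from a GFP-tagged genomic copy in the medulla NB larvae. The study describes eyR16F10-GAL4 as active in neurons as well as NBs. Method, form of Dpn and cells therefore differ together between the lists, and their parts in any difference cannot be told apart.

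Each list comes from the averaged profile of both replicates, at a false discovery rate (FDR) below 0.01. No replicate error can be had from it, no test between the lists was made, and the depth behind a peak is unknown. The score of a peak is the authors' value with no stated scale, so peaks are compared by rank within a list, where rank 1 is the highest score. Overlap means at least 1 shared bp, and distances to genes are taken from the edge of the peak.

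Dpn is a basic helix-loop-helix (bHLH) protein of the Hes family that marks NBs and is a target of Notch in them. The study states that Dpn was long classed as a repressor and cites work pointing to roles as both activator and repressor. lncRNAs are transcripts without a long open reading frame. Some act as RNAs, such as the roX RNAs of dosage compensation. Others are the precursors of microRNAs, and many are known only as transcripts that run through the regulatory DNA of a neighbouring developmental gene. A peak at such a gene is a position of Dpn near it and says nothing on whether the RNA is made.

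The members tended to be high in their lists. Their median score percentile was 69.0% in pan-NB, against 46.8% for peaks with a protein-coding gene within 1 kb and 61.1% for peaks with no gene there. In medulla NB the median was 64.7%, against 46.7% and 65.3%. Of the pan-NB members 97 (43.3%) were in the highest score quartile, which holds 25.2% of all pan-NB peaks, and 30 were in the lowest. Of the medulla NB members 67 (38.5%) were in the highest quartile, against 25.0% of all medulla NB peaks, and 24 were in the lowest. By these medians, for which there is no test, peaks at lncRNA genes alone ranked above peaks at protein-coding genes in both lists, and differed from peaks away from any gene in pan-NB more than in medulla NB. They made up 11 of the 50 highest-scoring pan-NB peaks and 4 of the 50 highest-scoring medulla NB peaks. Widths were close to those of all peaks, with a median of 1426 bp (34 to 6272 bp; all peaks 1408.5 bp) in pan-NB and 1487.5 bp (182 to 4900 bp; all peaks 1419 bp) in medulla NB.

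A medulla NB peak overlapped 135 of the 224 pan-NB members (60.3%), beside 55.1% of all pan-NB peaks. In the other direction, 138 of the 174 medulla NB members (79.3%) overlapped a pan-NB peak, beside 69.6% of all medulla NB peaks. The peak on the other side was itself a member in 127 and 130 of these cases. Bounds were the same at both ends in 19 pairs, and the median overlap was 89.2% of the length of a shared pan-NB member and 96.6% of that of a shared medulla NB member. In 2 pan-NB members and 4 medulla NB members the overlap was 1 bp. After merging, the members formed 268 regions, 127 with members of both lists, 97 with pan-NB members and 44 with medulla NB members. The share in pan-NB depended on the distance to genes. With a limit of 5 kb for both kinds of gene it was 51.7%, below the 55.1% of all peaks.

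Overlap went with score. The 135 shared pan-NB members had a median score percentile of 78.6%, and the 89 seen in pan-NB alone had 45.6%. The 138 shared medulla NB members had 69.5%, and the 36 others had 35.9%. In pan-NB, 16.7% of the 30 members of the lowest score quartile, 34.1% of 41 in the next, 69.6% of 56 in the next and 79.4% of 97 in the highest were shared, where all pan-NB peaks gave 27.2%, 47.6%, 65.3% and 79.9%. In medulla NB the members gave 50% of 24, 62.2% of 37, 91.3% of 46 and 91.0% of 67, where all peaks gave 47.3%, 61.7%, 78.8% and 90.7%. All pan-NB peaks, weighted to the score quartiles of the members, would be shared at 63.3%, above the 60.3% of the members. For medulla NB the weighted value was 75.4%, below the 79.3% of the members.

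**Figure D1:**
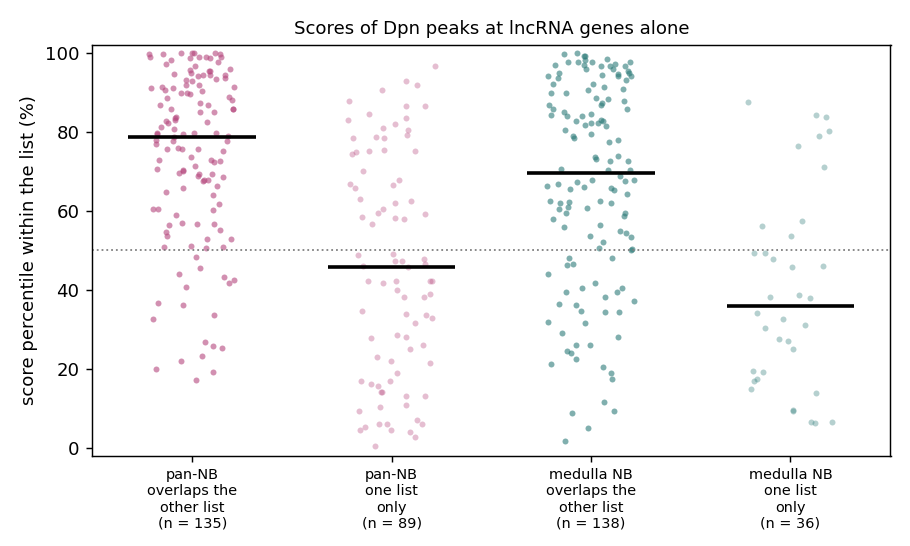
Score percentile within the list (%, y axis) of each Dpn peak at lncRNA genes alone, for pan-NB and medulla NB and by overlap with the other list (x axis). Points are peaks, bars are medians (78.6% and 45.6% in pan-NB, 69.5% and 35.9% in medulla NB) and the dotted line is the middle of a list, so shared peaks lie higher in both lists.

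**Figure D2:**
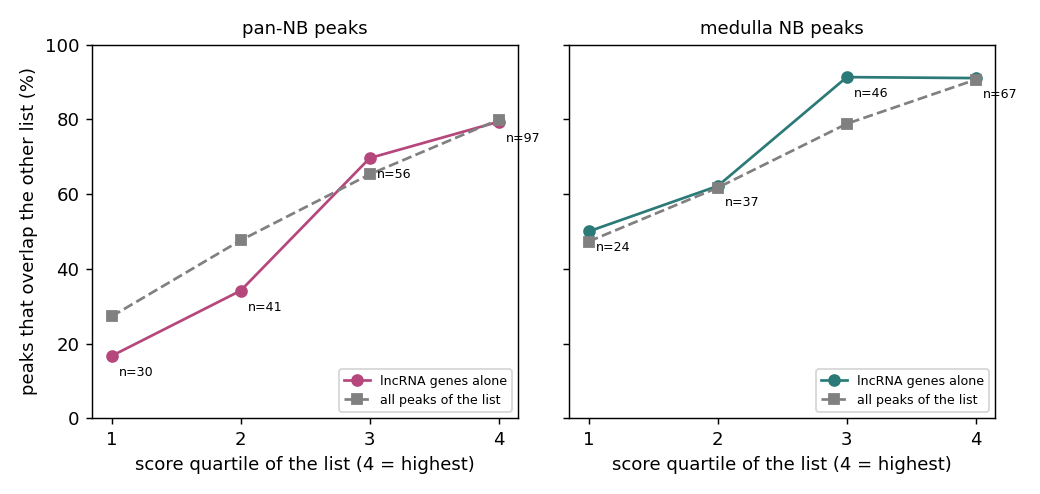
Share of peaks that overlap the other list (%, y axis) by score quartile of the list (x axis, 4 highest), for peaks at lncRNA genes alone (circles, n beside each) and for all peaks (grey squares). In the lowest pan-NB quartile members are at 16.7% and all peaks at 27.2%, and in the third medulla NB quartile members are at 91.3% and all peaks at 78.8%.

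For the 135 shared pan-NB members, the score percentiles in both lists went together across peaks (Spearman's rho 0.609, Pearson's r 0.632), as a description, since peaks are not replicates and members of one locus share their surroundings. The medulla NB percentile was the higher one for 64 of them and the pan-NB percentile for 71. In 51 the peak was in the highest quartile of both lists. For 6 members the percentiles differed by more than 50 points, and each was lower in medulla NB. One was the peak at CR44732, at rank 6 of 4282 in pan-NB and at rank 2209 of 3474 in medulla NB. Another was at CR43337, at rank 45 in pan-NB and 2282 in medulla NB. The remaining 4 were at CR44924, cherub, CR31386 and CR43491.

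Most members lay on a lncRNA gene and not beside one: 171 of 224 (76.3%) in pan-NB and 130 of 174 (74.7%) in medulla NB overlapped the gene. The peak was inside the gene in 71 and 62 cases, and the whole gene was inside the peak in 34 and 31. A single lncRNA gene was within 1 kb of 195 and 149 members, and up to 4 and 3 genes were within 1 kb of the others. The nearest protein-coding gene was at a median of 6873.5 bp in pan-NB (1012 to 134440 bp) and 6483 bp in medulla NB (1002 to 68072 bp). Pan-NB members were shared in 69.5% of 82 cases at up to 5 kb from it, in 53.6% of 110 at 5 to 20 kb and in 59.4% of 32 beyond. The same shares in medulla NB were 80.0% of 75, 78.4% of 74 and 80.0% of 25.

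By chromosome arm, 83.3% of 18 pan-NB members on 2R were shared, beside 53.6% of all pan-NB peaks there. On X it was 69.8% of 43 (all peaks 61.7%), and on 3L 67.9% of 56 (all peaks 56.6%). The shares on 3R, 52.8% of 53, and on 2L, 46.2% of 52, were near those of all peaks, 52.0% and 50.6%. Neither of the 2 members on arm 4 was shared, where 67.9% of all 53 peaks were. In medulla NB all arms with members were between 77.1% (3L) and 81.6% (X), where all peaks of these arms were between 68.7% and 70.8%, and arm 4 had no member.

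Of 1944 lncRNA genes, 446 (22.9%) had a pan-NB peak of any kind within 1 kb and 371 (19.1%) a medulla NB peak, where 26.3% and 22.2% of genes of all types did. A member peak lay at 191 lncRNA genes in pan-NB and at 150 in medulla NB, with 111 in both lists and 230 in either. The 111 were 58.1% of the pan-NB and 74.0% of the medulla NB genes with a member, near the 61.8% and 71.4% for protein-coding genes with a peak of any kind. Most had a single member peak, 160 in pan-NB and 125 in medulla NB, and 12 and 10 had at least 3. The gap between neighbouring members of an arm had a median of 50047 bp in pan-NB and 78667 bp in medulla NB, and 33.5% and 34.9% of the gaps were under 10 kb. Of the 80 lncRNA genes with a member peak in pan-NB alone, 72 had no medulla NB peak of any kind, and of the 39 with one in medulla NB alone, 30 had no pan-NB peak.

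The highest-scoring pan-NB member lay at CR45037, in the E(spl) complex of Notch targets. It was at 3R:26002048-26003103 with a score of 9.09 (rank 3), 1287 bp from E(spl)mgamma-HLH, which encodes a bHLH protein of the Hes type, as dpn does. In medulla NB a peak from the same start, 3R:26002048-26003379, reached CR45038 too and scored 11.41 (rank 57). A second medulla NB member of the complex was at CR45039, 3R:26007153-26008372 (score 8.19, rank 441), 1130 bp from E(spl)mbeta-HLH. The pan-NB peak at that place, 3R:26006972-26008372 (rank 781), was no member because E(spl)mbeta-HLH lay 949 bp from it, inside the limit.

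Next to lola, which encodes BTB zinc-finger proteins that keep neurons from reverting to NBs, lay the peaks at acal, a lncRNA known to restrain JNK signalling in dorsal closure of the embryo. The peak at 2R:10548133-10548920 scored 8.72 (rank 7) in pan-NB, and its counterpart at 2R:10548228-10548920 scored 12.92 (rank 15) in medulla NB. The neighbouring peak at 2R:10544783-10548115 had the same bounds in both lists, with a score of 7.21 (rank 239) in pan-NB and 9.87 (rank 166) in medulla NB. Joining of peaks closer than 500 bp made 1 member of them in each list. acal was the lncRNA gene with a member among the 20 highest ranks of both lists. These peaks lay beside acal, 873 bp from it in pan-NB and 968 bp in medulla NB, near the limit of 1 kb. The neighbouring peak, at ranks 239 and 166, overlapped the gene. With a limit of 0 kb acal had 1 member in each list.

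The highest-scoring medulla NB member was at CR44446, a gene of 501 bp, at 2R:8245162-8245511 with a score of 15.22 (rank 2 of 3474). The 2 pan-NB members at CR44446 had a best score of 7.10 (rank 288). CR45052 held the medulla NB peak of rank 30 (3R:31704913-31706279, score 12.06) and a pan-NB peak of rank 50. Within 1 kb of CR44292 lay the medulla NB peak of rank 34 (2R:9710605-9710995, score 11.97) and a pan-NB peak of rank 377 (2R:9710512-9710995, score 6.90). Both peaks ended 1326 bp from dap, which encodes the cyclin-dependent kinase inhibitor of the p21 and p27 family. The other medulla NB members among the 10 highest were at CR44983, CR32111, CR44941 (3R:12336175-12338019, rank 83, near Sgsf), CR44627 (2R:19934057-19934862, rank 85, near CG42690) and CR44737. All 10 were shared with pan-NB, beside 90.7% of all medulla NB peaks of the highest score quartile.

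In pan-NB the 10 highest were shared too. After CR45037 came CR44732 (2L:14429410-14431125, score 8.82, rank 6, near Cpr35B), acal, CR43334 (3L:644045-645568, score 8.65, rank 8) and CR32111 (3L:12646933-12647493, score 8.61, rank 12, near caup). CR44357 held the peak of rank 15 (X:7273698-7275185, score 8.44), near CG1958. The peak over CR45111 and CR45112 (2L:17582837-17587064, score 8.39, rank 18) lay 2120 bp from Oli, a bHLH gene of the Olig family. The peaks at CR42719 and CR43337 (rank 44) and at CR43337 and CR43491 (both rank 45) closed the group.

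The loci that follow were put together after the positions of the members were seen. Their counts of shared members stand beside shares of 55.1% for all pan-NB peaks and 69.6% for all medulla NB peaks. CR32773, a gene of 223710 bp on X within which the T-box gene bi lies, had the most members, 17 in pan-NB over 21908 bp and 13 in medulla NB over 18212 bp. It had 27 and 26 peaks in all, the rest within 1 kb of bi or another protein-coding gene. Of the members 11 were shared in each direction. At an FDR below 0.001, 7 of the medulla NB members were left. In pan-NB their scores were between 1.86 and 5.83, and none ranked above 882. In medulla NB they were between 1.84 and 9.26, the highest at X:4498374-4499260 (rank 238), where the pan-NB peak X:4497990-4499260 was at rank 1299. In the highest score quartile were 3 of the 17 pan-NB and 5 of the 13 medulla NB members. The members lay in 3 runs, one on the CG3626 side of bi, one on its other side and one at the far end near peb, a zinc-finger gene. In the last of these 4 of 5 pan-NB members had no medulla NB overlap, and the other shared 1 bp with a medulla NB peak.

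The 3 neighbouring genes CR46003, CR46004 and CR46006, at the microRNA genes mir-276a and mir-276b, had 9 pan-NB members over 15870 bp and 11 medulla NB members over 18188 bp, 8 of each shared. In 3 pairs the peaks had the same bounds in both lists: 3L:10286055-10286236 (rank 806 in pan-NB and 400 in medulla NB), 3L:10303256-10305695 (822 and 622) and 3L:10311239-10312387 (954 and 1244). The peak at mir-276b scored 5.11 (rank 1338) in pan-NB and 8.10 (rank 461) in medulla NB. The peak at mir-276a scored low in both, 2.70 (rank 3286) and 2.60 (rank 2571). No protein-coding gene lay within 1 kb anywhere in this stretch, and the medulla NB member farthest from one, at 68072 bp, was here.

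The genes around the microRNA bantam, a promoter of growth and an inhibitor of apoptosis, were CR42719, CR43337, CR43334 and CR43423. They had 9 pan-NB members over 15117 bp and 6 medulla NB members over 7975 bp. All 6 medulla NB members were shared, as were 6 of the 9 pan-NB ones. The peak that reached mir-ban scored 7.07 (rank 302) in pan-NB and 8.76 (rank 331) in medulla NB. Of the flanking peaks, those at 3L:622874-624341 and 3L:616923-619820 were at ranks 45 and 44 in pan-NB, and the medulla NB peaks that overlapped them were at 2282, and at 1518 and 1614. The last 2 covered 12.3% of 3L:616923-619820, and the one of rank 1518 met it at its first bp only. The highest pan-NB member of the locus, 3L:644045-645568 (rank 8), overlapped a medulla NB peak of rank 175 that was no member. Among the medulla NB members of the locus the one at mir-ban had the highest score.

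At the Iroquois locus, CR32111 and CR43431 lay beyond caup, a homeobox gene of the Iroquois complex. All 4 medulla NB members and 4 of 5 pan-NB members were shared. The peak at 3L:12637899-12638958 had the same bounds in both, with a score of 6.11 (rank 740) in pan-NB and 10.83 (rank 80) in medulla NB. The order was the opposite at 3L:12646933-12647493, at rank 12 in pan-NB and 149 in medulla NB. The pan-NB member without overlap was the widest there and near the foot of its list (3L:12630368-12635497, score 1.5, rank 4258).

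CR31386 and CR45055 lay in a stretch near pros, which encodes the homeodomain protein that ends self-renewal in the daughters of NBs. All 5 pan-NB members there were shared, and 5 of 6 medulla NB members. pros was the nearest protein-coding gene of 3 of them in pan-NB and 4 in medulla NB, at 14806 to 28057 bp. The others were nearest to CG5214. The highest in pan-NB was 3R:11305610-11306197 (score 7.85, rank 61), whose counterpart 3R:11305651-11306113 scored 7.29 (rank 635) in medulla NB. In medulla NB the highest was 3R:11277694-11278732 (score 7.66, rank 559), nearest to CG5214. It had the same start as a pan-NB peak of rank 1158. CR44357, near Cph, a zinc-finger gene, had 4 pan-NB members, all shared, and 5 medulla NB members, 4 of them shared. CR45668, beside the actin gene Act5C, had 3 members in each list, all shared.

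Members at some other loci were seen in pan-NB alone. The 5 lncRNA genes around tsh, a zinc-finger homeotic gene of the trunk, held 7 pan-NB members over 7045 bp, and no medulla NB peak of any kind lay within 1 kb of any of them. CR44917 held 6 of the 7. Its highest, 2L:21854505-21855918 (score 7.48, rank 149), was the highest-scoring pan-NB member without overlap. The others had ranks from 1097 to 3718, so the locus was not made of low peaks only. At H15, a T-box gene, 3 pan-NB members and no medulla NB member were listed. None of the pan-NB members at tsh and H15 overlapped a medulla NB peak, where 55.1% of all pan-NB peaks and 60.3% of all members did. From the lowest to the highest score quartile, 27.2%, 47.6%, 65.3% and 79.9% of all pan-NB peaks did. The peak at CR43713 and CR43714, 2L:5429904-5432338, scored 7.05 (rank 310) and was the second highest of the unshared pan-NB members.

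The third was at bxd, a lncRNA of the regulatory region of Ubx in the bithorax complex (3R:16773147-16773517, score 6.97, rank 345). The bithorax complex had 1 more pan-NB member, at CR44945 (rank 3558), and 1 medulla NB member, at iab8 and 2517 bp from Abd-B (3R:16922086-16924695, score 3.73, rank 1874). In the Antennapedia complex the pan-NB list had 4 members, at CR42651 (ranks 1064 and 842, near Dfd and Scr), CR44931 (rank 3054) and CR45559 (rank 3808, near Antp). The medulla NB list had 1 (3R:6806417-6808982, rank 3257, near Dfd). None of the 8 members at the 2 Hox complexes overlapped a peak of the other list. Of all peaks, 55.1% in pan-NB and 69.6% in medulla NB did. In the lowest score quartile, with the members at CR44945 and CR45559 and the medulla NB one near Dfd, 27.2% and 47.3% did.

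The members around noc and around salm and salr, zinc-finger genes, were partly shared. In the stretch around noc 5 of 11 pan-NB members and all 5 medulla NB members were shared. noc was the nearest protein-coding gene of 2 of them in each list. The others were nearest to other genes, such as Cpr35B, CG33648 and CG42680. The peak at CR44856, 2L:14576350-14578064, nearest to CG42680, had the same bounds in both lists (rank 514 in pan-NB and 111 in medulla NB). That at CR44731, nearest to noc, was at rank 354 in pan-NB and 197 in medulla NB. The 6 unshared ones had pan-NB scores no higher than 4.35 (rank 1857). In the stretch of salm and salr 2 of 5 pan-NB members were shared. The highest, at CR44585 and nearest to CG14926 (2L:11338747-11339422, score 6.29, rank 664), was not.

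**Figure D3:**
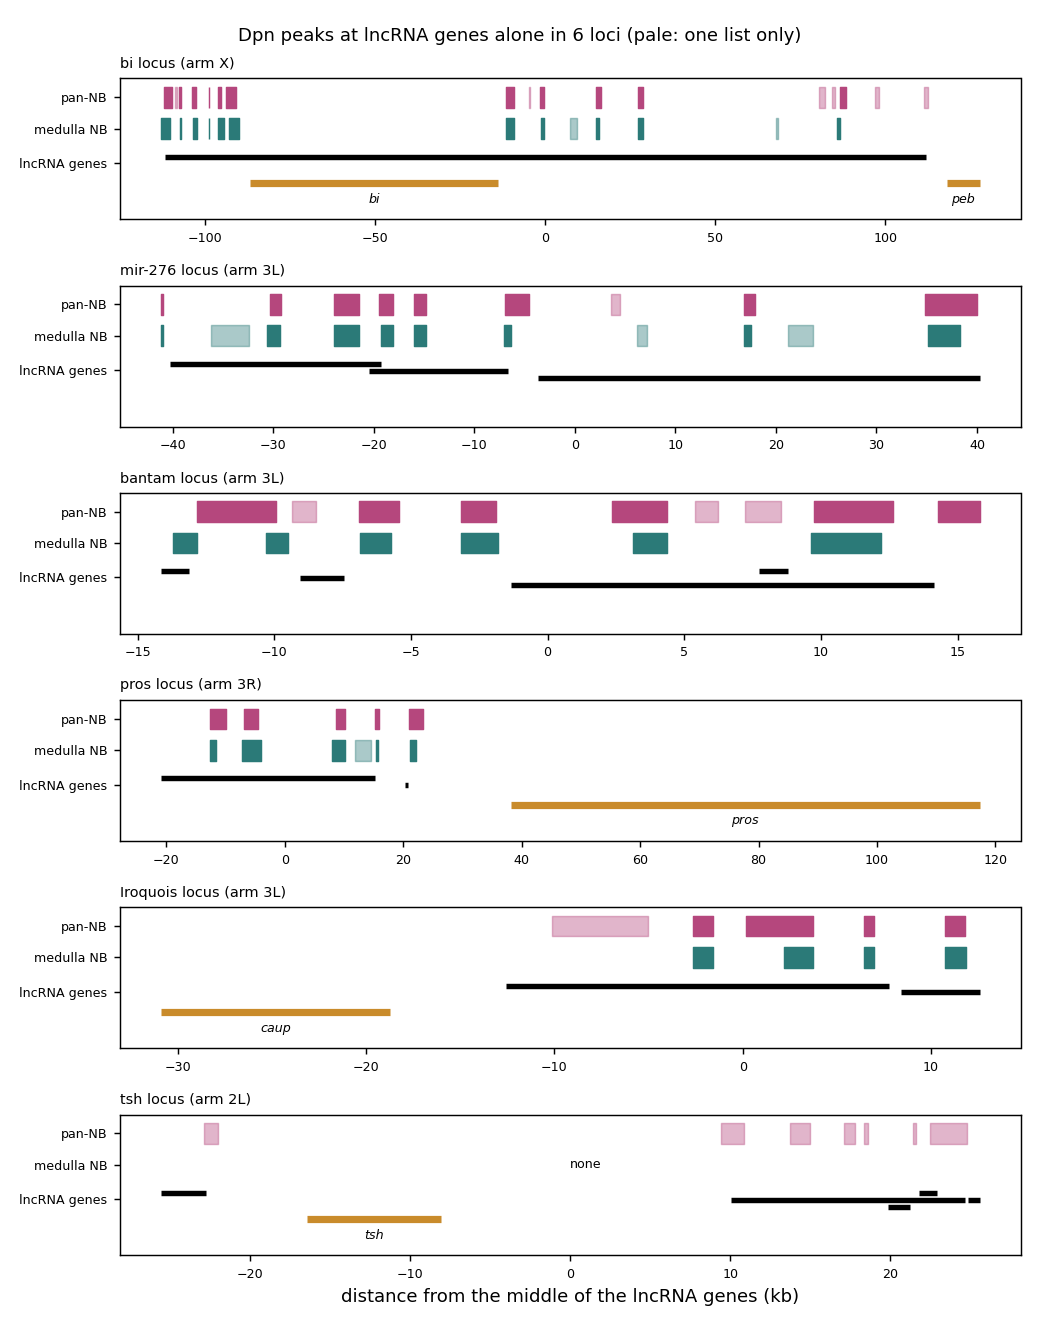
Peaks at lncRNA genes alone in 6 loci, by distance from the middle of the lncRNA genes (kb, x axis), in pan-NB (upper row, magenta) and medulla NB (second row, green), with the lncRNA genes (black) and protein-coding genes (ochre) under them. Pale boxes are peaks without overlap in the other list: none of the 5 pan-NB members in the pros locus, 6 of 17 in the bi locus and all 7 in the tsh locus.

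**Figure D4:**
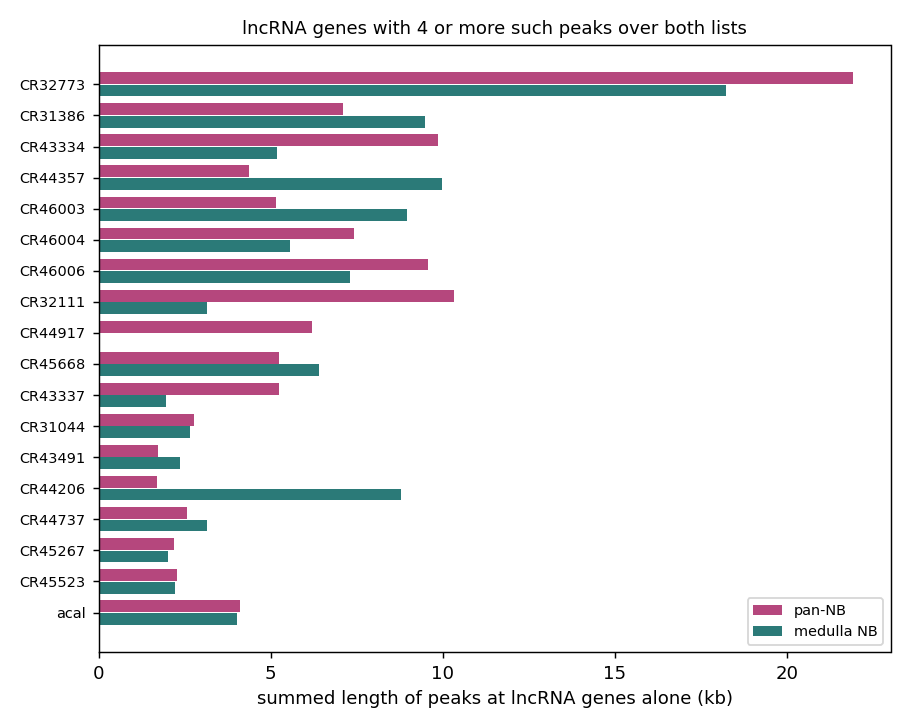
Summed length of the peaks at lncRNA genes alone (kb, x axis) for each lncRNA gene with at least 4 of them over both lists (y axis), in pan-NB (magenta) and medulla NB (green). CR32773 has 21908 bp in pan-NB and 18212 bp in medulla NB, and CR44917 has 6203 bp in pan-NB and none in medulla NB.

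Fewer members were seen in medulla NB alone. The 3 with the highest scores were at CR46215 (3L:18430245-18430902, score 8.20, rank 437, near skl, a cell death gene), CR43247 (3L:15330149-15331346, score 7.68, rank 548, near Toll-6) and CR30009 (2R:10263017-10263778, score 7.61, rank 569, near CG12910). At CR44206 the medulla NB list had 3 members over 8770 bp and the pan-NB list 1 of 1688 bp. The shared peak was at rank 208 in medulla NB (score 9.46) and 174 in pan-NB (score 7.40), and 1 of the other medulla NB peaks lay at mir-184 (2R:13326527-13330488, rank 1614).

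Temporal transcription factors (tTFs) follow one another in ageing medulla NBs. In each list 5 members had one of them, slp2, hth, gcm or B-H1, as the nearest protein-coding gene. All 5 were shared in each list, beside 55.1% of all pan-NB peaks and 69.6% of all medulla NB peaks. In the highest score quartile 79.9% and 90.7% of all peaks were shared. At CR44983 both lists had 2L:3844307-3847565, 5122 bp from slp2, a mid tTF of the fork head family, with a score of 6.97 (rank 345) in pan-NB and 11.05 (rank 69) in medulla NB. At CR45576 the pan-NB peak 3R:10490669-10492678, 14883 bp from the early tTF hth, scored 5.58 (rank 1064), and the medulla NB peak from the same start scored 7.66 (rank 559). For hth the study reported lost or significantly reduced Dpn binding in medulla NBs. It compared occupancy per replicate and assigned peaks to genes within 1 kb. The peak at CR45576 lies beyond that limit, and a rank within a list is another measure. At CR43621, near gcm, which directs glial fate, the pan-NB peak 2L:9584601-9585790 scored 6.91 (rank 373) and the medulla NB peak 2L:9585006-9585790 scored 8.11 (rank 458). Both peaks at CR43491 had B-H1, a homeobox gene, as the nearest protein-coding gene, at 17208 to 19244 bp. They were at rank 45 and 1396 in pan-NB and at rank 280 and 3148 in medulla NB. As a share of the members, 2.23% in pan-NB and 2.87% in medulla NB had a tTF as the nearest protein-coding gene, less than the 5.28% and 7.29% of peaks with no gene within 1 kb.

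Over all 7 lists of protein-coding genes used here, with 113 genes, 23 pan-NB members (10.3%) and 26 medulla NB members (14.9%) had a listed gene as the nearest one, beside 12.4% and 14.6% of peaks with no gene within 1 kb. Of these 20 and 21 were shared. Of all members 60.3% in pan-NB and 79.3% in medulla NB were shared, and of all peaks 55.1% and 69.6%. The NB identity list gave 6 and 7 members, with lola, pros or sna as the nearest protein-coding gene, of which 6 in each list were shared. As a share of the members this was 2.68% and 4.02%, above the 1.14% and 1.42% of peaks with no gene within 1 kb. These members came from 3 genes, with 3 and 4 at pros, 2 in each list at lola and 1 in each list at sna. The peaks near lola became 1 member in each list when peaks closer than 500 bp were joined. At CR45353 the peak, 5209 bp from sna, a Snail family repressor, was at rank 3137 in pan-NB and 1808 in medulla NB. Medulla neuron fate and optic lobe genes gave 4 and 7, at Optix, run and tup in both lists and at disco in medulla NB. These were 1.79% and 4.02% of the members, beside 2.85% and 3.85% of peaks with no gene within 1 kb. The peak at CR44737 near tup, a LIM homeodomain gene, was at rank 723 in pan-NB and at rank 87 in medulla NB (2L:18896702-18897678, score 10.77). The other pair of peaks at CR44737 had the opposite order, at rank 373 in pan-NB and 650 in medulla NB. The peak at CR43862, which ended 1899 bp from run, a Runt family gene, was at rank 438 in pan-NB and 205 in medulla NB. Around the homeobox gene Optix, CR45267 had 2 members in each list, and all 4 were shared. The larval temporal list gave 3 and 2 members (1.34% and 1.15%), beside 2.14% and 1.62% of peaks with no gene within 1 kb. Of its genes, cas had a peak at CR44924 at rank 567 in pan-NB and 2370 in medulla NB. The peak at CR45695 near chinmo, a gene of early-born neurons, was at rank 943 in pan-NB and 950 in medulla NB. Imp, which encodes an RNA-binding protein of young NBs, was nearest to a pan-NB member at CR45624 (rank 1036). It overlapped the medulla NB peak X:10824940-10826664 (rank 613), which was no member. The Hox list gave 3 and 2 members (1.34% and 1.15%), beside 0.856% and 0.202% of peaks with no gene within 1 kb. None of them was shared, where 60.3% and 79.3% of all members were. dap was the cell cycle gene with a member in either list, 0.446% and 0.575% of the members, beside 0% of peaks with no gene within 1 kb.

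Of 38 lncRNA genes with a name other than CR and digits, 10 had a member peak and 21 had a peak of any kind. Besides acal these were cherub, bxd, iab8, Hsromega, flam, TS2, TS4, TS27 and the alphagamma-element CR32865. cherub, which is segregated asymmetrically in NBs of type II and builds up in NB tumours, had 1 pan-NB member of 101 bp (3R:11256095-11256195, score 6.42, rank 607). In medulla NB it had 2 members at ranks 2520 and 2734, and the second of them, 3R:11256167-11256375, overlapped the pan-NB peak. At Hsromega, a heat-shock RNA of nuclear speckles, the peak 3R:21297360-21298553 had the same bounds in both lists, at rank 1857 in pan-NB and 1173 in medulla NB. The alphagamma-element CR32865, at the heat-shock locus with Hsp70Ba nearest, had a pan-NB peak of rank 548 and a medulla NB peak of rank 356 that overlapped. flam, the precursor of a large cluster of piRNAs in the ovary, had 2 pan-NB members, at ranks 1777 and 4085, and no medulla NB peak. Of the TS genes, TS4 had a shared peak in each list (rank 1869 and 1943), TS2 a pan-NB member (rank 1078) and TS27 a medulla NB member (rank 2393).

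Of 22 names in a list of known lncRNAs, 17 were in the annotation, 11 had a peak of any kind and 7 had a member. The others had peaks that were no members, or none. roX1 and roX2, the RNAs of the dosage compensation complex, each had 1 pan-NB peak, and roX2 had 1 medulla NB peak, all with a protein-coding gene within 1 kb. let7C, the precursor of let-7, had 1 pan-NB peak near a protein-coding gene and none in medulla NB. The same was true of iab4, which is not in that list. sphinx had 1 and 2 such peaks. noe, CRG and yar had no peak in either list.

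A microRNA gene lay within 1 kb of 8 of 224 pan-NB members (3.57%, beside 0.747% of all pan-NB peaks) and of 11 of 174 medulla NB members (6.32%, beside 1.04% of all). Of peaks whose only gene within 1 kb was of another kind, 6.67% of 30 in pan-NB and 22.2% of 9 in medulla NB had one. Peaks with no gene within 1 kb have none by definition. The microRNA genes were looked at after the positions were seen. The genes mir-124, mir-8, mir-ban, mir-276a, mir-276b, mir-10, mir-279 and mir-996 had a member in both lists, and mir-184, mir-282 and mir-985 in medulla NB alone. The peaks of 7 of these were shared, and those at mir-10, in the Antennapedia complex, did not overlap. At CR45919 the peak over mir-124, a microRNA of neurons, scored 5.79 (rank 913) in pan-NB and 7.41 (rank 606) in medulla NB. At CR43650 the peak at mir-8 had the same bounds, 2R:16830035-16831800, at rank 1384 in pan-NB and 2181 in medulla NB. CR31044, at mir-279 and mir-996, had 2 members in each list, all shared, at ranks 1158 and 2092 in pan-NB and 1019 and 2062 in medulla NB.

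Members near the limit of 1 kb had a protein-coding gene not far beyond it. In pan-NB the nearest were at CR45201 (1012 bp from fuss), CR44498 (1105 bp from mab-21) and CR45643 (1111 bp from tara), and 1 of these 3 was shared. Just outside the rule were the peaks at CR45973 (973 bp from trbl), CR45297 (972 bp from CG15629) and CR45039 (949 bp from E(spl)mbeta-HLH). In medulla NB those inside were at CR43724 (1002 bp from Optix), CR46474 (1042 bp from danr) and CR44966 (1065 bp from fz3), and those outside at CR45297 (972 bp from CG15629), CR33938 (921 bp from Ccp84Ab) and CR46015 (912 bp from GstD2). Peaks at a lncRNA gene with a protein-coding gene within 1 kb as well numbered 297 in pan-NB, of which 67.0% were shared, and 263 in medulla NB, of which 72.6% were shared. The members, peaks at lncRNA genes alone, were 43.0% and 39.8% of all peaks at lncRNA genes.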

How the data were processed

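Dpn peaks came from 8 DamID samples in 4 conditions. The authors ran damidseq_pipeline with default settings on the reads, took the mean profile of the 2 replicates of a condition, and used find_peaks (min-quant 0.8, FDR below 0.01) on it. Tool versions and genome build: not given in the sources used here. The deposited lists give for each peak a position, a score and an FDR. The methods describe calls per replicate, whereas these lists are of averaged profiles, which hides differences between replicates. All peaks but 7 pan-NB peaks on Y, none of them at a lncRNA gene alone, were used. The lists matched Release 6 in extent: the last peak lay up to 49.0 kb (arm 4), 10.4 kb (3R) and 5.81 kb (2R) beyond the last gene, and not beyond it on the other arms. The RefSeq table of Release 6 gave 17684 genes, 13922 protein-coding and 1944 lncRNA, without exons, strand or start sites, and its coordinates are not printed.

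Distances were taken from peak edge to gene edge with Python 3.11.15, numpy 2.4.6 and pandas 2.3.3, checked on simulated data. Percentiles of score were taken within a list. The genes named are those at the 10 highest-scoring members of each list, the 5 lncRNA genes with most members, lncRNA genes with a name, members just inside and peaks just outside the limit, the 3 highest-scoring unshared members of each list, and the nearest protein-coding genes of these, with listed genes nearest to a member. The loci and the microRNA genes were chosen after the values were seen, as were CR44206 and the lncRNA genes named with a locus. The members and gene lists were chosen with earlier results of these data known. Alternatives were the distance to genes (0 and 5 kb), 50% overlap, FDR below 0.001, the higher-scoring 50% of peaks, a pan-NB list limited to as many peaks as the medulla NB list, joining of peaks closer than 500 bp, antisense RNA genes counted as lncRNA genes and, added after the data were seen, leaving out CR32773.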

Additional observations from a re-analysis of the deposited data

How the results depend on the processing

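Of 117 values of 13 results under alternatives, 103 moved by less than the limits used for a count or an interval, and 14 moved further. For a count the limit was a factor of 1.5. A fall from 224 to 153 pan-NB members in the higher-scoring 50% of peaks thus did not pass it. For a share or a median it was a 95% interval over peaks, which are not replicates. The 103 are therefore no measure of how the results would vary between replicates. With genes within 5 kb, the shared share of pan-NB members was 51.7%, below that of all peaks, median widths were 1260 bp in pan-NB and 1237 bp in medulla NB, and 46.2% and 43.8% of members overlapped the lncRNA gene. At 0 kb the last share was 100% in both by construction. With 50% overlap the shared shares were 50% and 66.1%, beside 44.3% and 57.3% of all peaks. In the higher-scoring 50% of each list, the median percentile of pan-NB members was 59.0%, and medulla NB had 113 members, 85.8% of them shared, at 99 lncRNA genes. With as many peaks in both lists, 66.7% of pan-NB members were shared, beside 61.8% of all. Under FDR below 0.001, joining, antisense RNA genes and, chosen after seeing the data, leaving out CR32773 (59.9% and 78.9% shared), none of the 13 moved so far. Counts at single genes moved as well: CR32773 had 7 medulla NB members at an FDR below 0.001, and with genes within 5 kb CR44357 had 2 and CR45668 had 1 in each list. The causes of these moves were not tested apart from that at 0 kb. No paired analysis was possible because each list holds the average of both replicates, so leaving out a replicate was not possible either. The search for bHLH motifs was not run, as no genome sequence was used here. Depth is unknown.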

Other observations

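Peaks whose only gene within 1 kb was of another kind, such as an antisense RNA or a tRNA gene, were fewer, 30 in pan-NB with 30% shared and 9 in medulla NB with 77.8% shared. The median score percentile of these was 40.5% in pan-NB and 65.2% in medulla NB, where the members had 69.0% and 64.7%. lncRNA genes with a peak of any kind had a median length of 742 bp, and those with a member 841.5 bp, against 662.5 bp for all lncRNA genes.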
